A study of Mus musculus with 11 samples.

Results

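Control EpiSCs, mouse epiblast stem cells without a transgene in their labels, were given G-CSF for 3 hours and set against the same cells without it. The comparison holds 6 of the 11 Illumina bead arrays of the series, chosen by their labels alone: 3 arrays of control EpiSCs with G-CSF for 3 hours (GCSF in the labels) and 3 arrays of unstimulated control EpiSCs, all in N2B27 medium with Activin and Fgf and all of strain 129xMF1. The other 5 arrays come from EpiSCs with the transgene GY118F, 2 with G-CSF for 3 hours and 3 unstimulated in the same medium, and they enter here only as a second line. Nothing in the labels says that the replicates were separate cultures, whether the control cells carry an empty vector, or whether more than 1 clone was used. No mock-treated control culture is described in the labels, so the cytokine and the handling that came with it cannot be told apart.

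G-CSF is a cytokine that drives the production of neutrophils, and it signals through a receptor found mainly on blood cells. GY118F is an engineered receptor, with the outside of the G-CSF receptor fused to the inside of gp130 and a tyrosine of gp130 replaced, and it activates the transcription factor STAT3. EpiSCs resemble the epiblast of the embryo just before gastrulation, depend on Activin and Fgf, and lie close to primitive streak fates that WNT, Nodal and FGF signals promote. ATF4, whose target genes include several of the largest falls below, is a transcription factor whose protein is made when amino acids run short or unfolded proteins build up, and it then switches on genes for amino acid uptake, amino acid synthesis and tRNA charging.

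Values are on a log2-like scale that ran from 7.11 to 15.22 with a median of 8.16, so a difference of 1 stands for 2-fold if the scale is a plain log2. Each gene was represented by its brightest probe, which gave 11208 features, and a feature was called where limma's test had a Benjamini-Hochberg adjusted p under 0.05. The label of the cells held in their markers. All 14 measured markers of pluripotent EpiSCs, such as Pou5f1 (mean 12.77 ± 0.15 SD with G-CSF and 12.53 ± 0.098 SD without) and Dnmt3b (13.59 ± 0.12 SD and 13.58 ± 0.081 SD), lay above the 25th percentile of all values, 7.62. Haematopoietic markers averaged 7.66 to 7.78 with G-CSF and 7.59 to 7.60 without it, with Elane and Csf1r under that percentile in both groups. Kit, the remaining haematopoietic marker measured, rose by 0.32. Endoderm markers averaged 7.74 to 7.80 with G-CSF and 7.74 to 7.94 without it, and fibroblast markers 8.36 to 8.46 and 8.38 to 8.43. Dcn, which defines fibroblasts, and Pdgfra were under the 25th percentile in both groups. Of the remaining fibroblast markers Vim rose by 0.43, Thy1 fell by 0.49 and Fn1 (0.19) was not called. The neural progenitor markers Nes and Zic1 averaged 8.31 to 8.38 with G-CSF and 8.06 to 8.19 without it. Nes rose by 0.40 and Zic1 (0.08) was not called. Trophoblast markers averaged 8.37 to 8.44 with G-CSF and 8.08 to 8.11 without it: Tfap2c, Cdx2 and Eomes rose, Krt8, Krt18 and Bmp4 fell, and Krt7 was not called. The part of other cell types in the results was not tested. In bulk RNA, fewer cells that express a gene and less RNA per cell cannot be told apart.

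Control EpiSCs with G-CSF differed from unstimulated ones in 2187 features that were higher (19.5% of all) and 2536 that were lower (22.6%). Most changes were small: 361 features (3.22%) rose and 473 (4.22%) fell by more than 1.4-fold, and 32 rose and 52 fell more than 2-fold. The median change over all features was 0.0012, and 6 features rose and 7 fell more than 4-fold. Chac1, Trib3, Ccn2, Herpud1, Ddit4, Vldlr and Nupr1 made up the 7 falls of that size. Stimulated and unstimulated arrays correlated at r = 0.977 to 0.982 across features, against 0.995 to 0.998 among the stimulated and 0.997 to 0.998 among the unstimulated arrays. Features are not independent replicates, and the number of arrays limits the precision. The gene lists below were chosen with earlier results of these data known. Their counts describe the listed members, and nothing beyond those members is read from them.

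**Figure D1:**
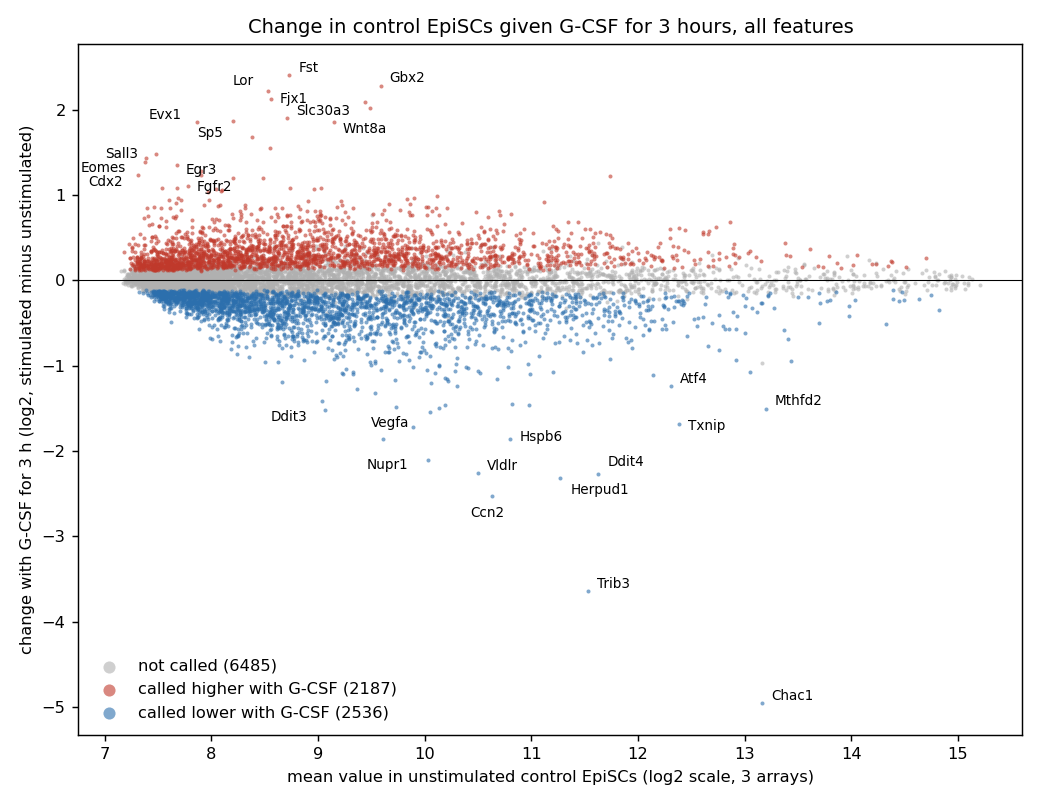
Change in control EpiSCs with G-CSF for 3 hours (vertical axis, log2, stimulated minus unstimulated means of 3 arrays each) against the mean value in unstimulated control EpiSCs (horizontal axis, log2 scale). Each point is a feature, red where called higher and blue where called lower, and Chac1 lies farthest from 0 at -4.96.

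The genes through which STAT3 is usually read did not rise as a group in control EpiSCs. Of 17 measured feedback and early targets of STAT3, 2 rose and 6 fell, and their median change was -0.0049. Among all features 19.5% rose and 22.6% fell. Socs3, the feedback inhibitor that STAT3 induces, stood at 8.05, 8.01 and 8.11 with G-CSF, against 8.19, 8.22 and 8.27 without it, a fall of 0.17 ± 0.044 (SE; limma adjusted p = 0.00735). These groups did not overlap, but the fall was small. Stat3 itself had 7.80, 7.61 and 7.70 with G-CSF and 7.84, 7.89 and 7.90 without it, a change of -0.17 ± 0.077 (SE; limma adjusted p = 0.0982), which was not called, although it was without GY118F arrays in the fit (limma adjusted p = 0.0318) and under 4 other alternatives. Cish, another feedback inhibitor of cytokine receptors, fell by 0.29. The rises were in Socs2, a SOCS family member that also answers to STAT5, by 0.79, and in the Krüppel-like factor Klf5, by 0.43. Irf1, an interferon-responsive transcription factor, fell by 0.48, the C/EBP factors Cebpb and Cebpd by 1.06 and 0.59, and the kinase gene Pim3 by 0.42. With the lowest values raised to the 25th percentile the Irf1 call was lost (limma adjusted p = 0.0505). The guanylate-binding proteins Gbp2 (0.016) and Gbp2b (0.11), the receptors Cd40 (0.092) and Ngfr (-0.005), Bcl3 (0.03) and Icam1 (0.027) were not called. Of the receptors and kinases of this cytokine family, 5 of 18 were measured, and Csf3r, which encodes the G-CSF receptor, was not analysed here. The kinase gene Tyk2 fell by 0.30 and Jak1 by 0.23, whereas Jak2 (-0.086) was not called. The Jak1 call was lost with that floor and when unstimulated control replicate 2 or 3 or stimulated control replicate 2 or 3 was left out (limma adjusted p up to 0.0862).

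Nearly all measured ATF4 stress effectors fell, in a list chosen with earlier results of these data known. Of 22 measured members 21 fell, 19 of them by more than 1.4-fold, and none rose, with a median change of -1.07. Over all features 22.6% fell, 4.22% by more than 1.4-fold, and 19.5% rose. Cbs (0.048), which condenses serine with homocysteine, was the member without a call. The promoters of 3 amino acid stress genes that fell are shown because each holds the composite C/EBP-ATF response element to which ATF4 binds, searched as TGATGNAA on both strands. Sequences are the 250 bases before the start site from RefSeq (GRCm38.p6), written 5′ to 3′ along the gene, and capitals mark the match, which in Chac1 and Nupr1 is on the opposite strand and so reads TTGCATCA. Nupr1 and Asns lie on the minus strand and Chac1 on the plus strand.

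Chac1 (chr2:119350992-119351241, plus strand): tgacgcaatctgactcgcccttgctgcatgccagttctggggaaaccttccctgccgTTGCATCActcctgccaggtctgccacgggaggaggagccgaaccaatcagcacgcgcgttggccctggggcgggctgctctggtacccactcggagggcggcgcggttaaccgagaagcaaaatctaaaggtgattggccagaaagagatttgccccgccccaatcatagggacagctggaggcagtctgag
Nupr1 (chr7:126625471-126625720, minus strand): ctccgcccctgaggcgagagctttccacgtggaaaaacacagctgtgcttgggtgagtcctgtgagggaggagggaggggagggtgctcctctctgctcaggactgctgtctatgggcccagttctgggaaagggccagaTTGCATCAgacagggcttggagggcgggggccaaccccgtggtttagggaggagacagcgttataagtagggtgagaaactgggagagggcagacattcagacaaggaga
Asns (chr6:7693210-7693459, minus strand): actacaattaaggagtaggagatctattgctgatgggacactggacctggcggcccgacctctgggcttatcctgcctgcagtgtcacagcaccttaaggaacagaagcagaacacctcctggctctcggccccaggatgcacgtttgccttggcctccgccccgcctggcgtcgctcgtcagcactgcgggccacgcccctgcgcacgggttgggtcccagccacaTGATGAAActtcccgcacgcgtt

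Among the ATF4 stress effectors, 19 of 22 had a promoter in the table. A match lay in 6 of their 25 windows (24.0%), against 1.89% of 9637 windows of all measured genes and 3.45% of all 32851 windows. The genes with a match were Atf3, Chac1, Fgf21, Jdp2, Nupr1 and Vldlr. The element was also found in the windows of the tRNA synthetase genes Aars, Gars and Tars, 3 of 12 windows of that list. In the amino acid synthesis list it was in 1 of 15 windows (6.67%), that of Asns, and among transporters in 1 of 12 (8.33%). A match is a description of these letters and not evidence of binding. The lists were chosen with earlier results of these data known, so nothing is read from these shares.

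Chac1, which encodes an enzyme that breaks down glutathione, had the largest change of any feature. Its values were 8.22, 8.26 and 8.13 with G-CSF and 13.17, 13.13 and 13.18 without it, a change of -4.96 ± 0.056 (SE; limma adjusted p = 8.65e-15) or 31.1-fold. Every stimulated array lay more than 4 units below every unstimulated one. Trib3, a pseudokinase that restrains AKT and ATF4 itself, stood at 7.90, 7.89 and 7.86 with G-CSF and 11.55, 11.50 and 11.54 without it (-3.64 ± 0.071, SE; limma adjusted p = 4.26e-12). Its stimulated values lay between the 25th percentile and the median of all values. Herpud1, which serves the degradation of proteins from the endoplasmic reticulum (ER), had 8.94, 9.04 and 8.89 with G-CSF and 11.20, 11.34 and 11.27 without it (-2.31). Ddit4, an inhibitor of the growth kinase mTORC1, had 9.42, 9.38 and 9.29 with G-CSF and 11.71, 11.56 and 11.62 without it (-2.27). In these genes too the groups were far apart, with replicates within 0.15 of each other in every group.

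Vldlr, a lipoprotein receptor that ATF4 induces, had 8.28, 8.16 and 8.29 with G-CSF and 10.61, 10.48 and 10.41 without it (-2.26 ± 0.063, SE). Nupr1, a stress-induced chromatin protein, had 7.99, 7.84 and 7.95 with G-CSF and 9.94, 10.004 and 10.15 without it (-2.10 ± 0.094, SE). Ddit3, the stress factor CHOP that promotes cell death, fell to 7.55, 7.59 and 7.47 with G-CSF, against 8.91, 9.04 and 9.24 without it (-1.52 ± 0.11, SE). The stimulated values of Ddit3 lay under the 25th percentile of all values. The Atf4 mRNA fell as well, to 10.87, 11.18 and 11.16 with G-CSF, against 12.21, 12.54 and 12.18 without it (-1.24 ± 0.11, SE; limma adjusted p = 2.48e-06), with every array above the median of all values. The related factors Atf5, Atf3, Cebpg and Jdp2 fell by 1.2, 0.65, 0.90 and 0.68. Stc2, a secreted glycoprotein, fell by 1.28, the pro-apoptotic BH3 gene Bbc3 by 1.08, the translation repressor Eif4ebp1 by 0.57 and Ppp1r15a, which reverses the stress block of translation, by 0.55. The secreted factor Fgf21 fell by 0.24, which was no longer called with the lowest values raised to the 25th percentile (limma adjusted p = 0.435).

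**Figure D2:**
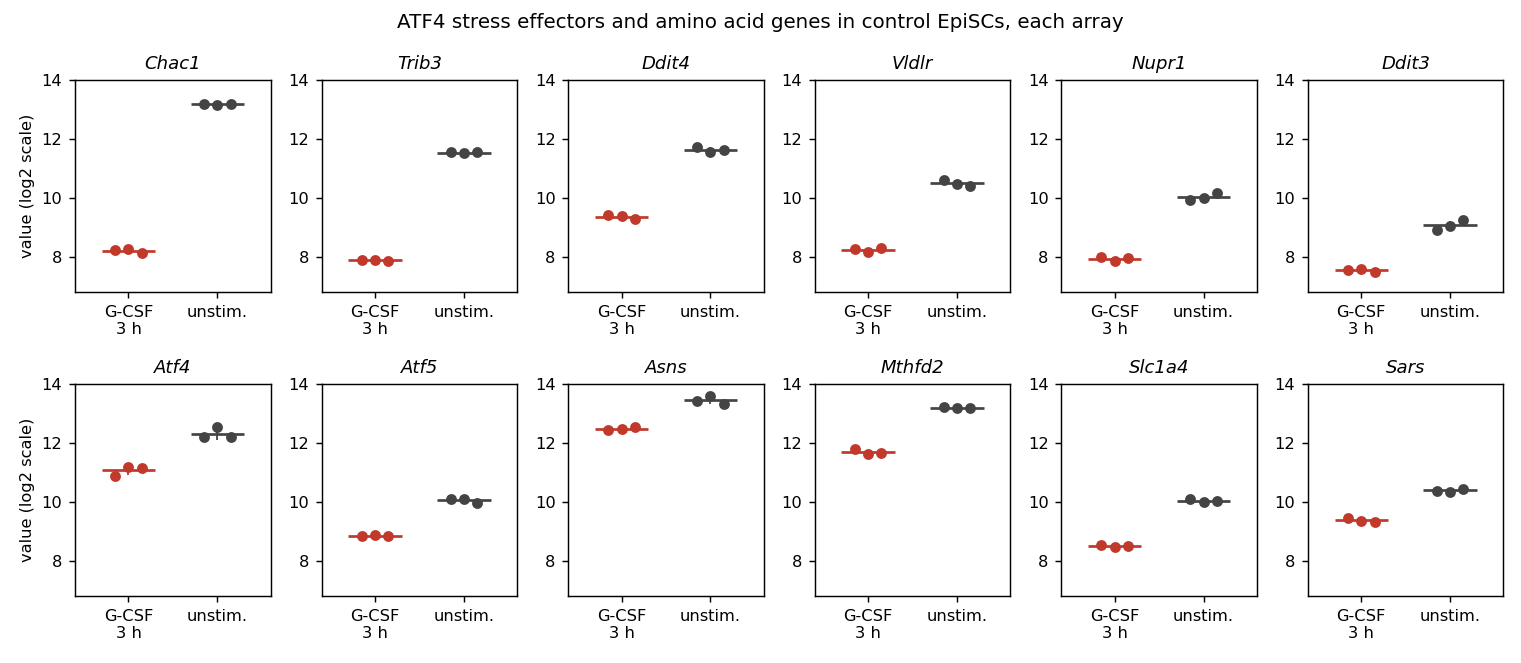
Values on the log2 scale (vertical axes, one range for all panels) of 12 ATF4 stress and amino acid genes in each of the 3 control arrays with G-CSF (red) and the 3 unstimulated control arrays (grey), with group means as horizontal lines and SD as vertical lines. In each of the 12 panels every stimulated array lies below every unstimulated array, from -4.96 in Chac1 to -0.95 in Asns.

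Genes that make and import amino acids fell with them. Of 13 measured enzymes of amino acid synthesis and the serine one-carbon route, 9 fell and none rose (median change -0.53). Among all features 22.6% fell and 19.5% rose. Gpt2, a mitochondrial alanine transaminase, had 8.24, 8.16 and 8.12 with G-CSF and 9.94, 9.85 and 9.88 without it (-1.72 ± 0.075, SE). Mthfd2, a mitochondrial folate enzyme, had 11.78, 11.62 and 11.67 with G-CSF and 13.21, 13.19 and 13.19 without it (-1.51 ± 0.060, SE). Asparagine synthetase, Asns, fell by 0.95, the proline enzyme Aldh18a1 by 0.85 and the serine pathway enzymes Phgdh, Psat1 and Shmt2 by 0.80, 0.53 and 0.53. The cytosolic folate enzyme Mthfd1 (0.075) and the transaminase Got2 (-0.025) were not called. Bcat1, which starts the breakdown of branched-chain amino acids, fell by 0.20, a call lost without stimulated control replicate 3 (limma adjusted p = 0.0512).

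Amino acid transporters were split by size. Slc1a4, a neutral amino acid transporter, had 8.54, 8.46 and 8.49 with G-CSF and 10.09, 10.01 and 10.04 without it (-1.55 ± 0.044, SE), and the glycine transporter Slc6a9 had 7.54, 7.65 and 7.67 with G-CSF and 9.12, 9.01 and 8.99 without it (-1.42 ± 0.061, SE). Slc38a2 fell by 0.57 and the cationic transporter Slc7a3 by 0.42. In all 7 of 12 measured transporters fell and 1, Slc7a6, rose by 0.17, a call lost without unstimulated control replicate 3 or stimulated control replicate 2 (limma adjusted p up to 0.0861). The cystine transporter Slc7a11 (-0.10) was not called. Among the cytosolic aminoacyl-tRNA synthetases, which load amino acids onto tRNAs, 10 of 18 fell and 1 rose. For transporters and synthetases alike, the shares over all features were 22.6% lower and 19.5% higher. The seryl enzyme Sars fell by 1.01, the methionyl enzyme Mars1 by 0.61, the alanyl enzyme Aars and the leucyl enzyme Lars each by 0.58, the glycyl enzyme Gars by 0.51 and the cysteinyl enzyme Cars by 0.46. The arginyl enzyme Rars rose by 0.25, and the histidyl, lysyl and tyrosyl enzymes Hars (0.006), Kars (0.027) and Yars (-0.026) were not called.

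Chaperones were called less one-sidedly. Of 19 measured ER chaperone and unfolded protein response genes, 7 rose and 2 fell, with a median change of 0.10. Selenos, a selenoprotein of the ER degradation complex, rose by 0.89, the disulfide isomerase Pdia3 by 0.39, Derl2, a channel component of ER degradation, by 0.33 and the chaperone partner Creld2 by 0.28. The ER chaperone Hsp90b1 (0.10), Hyou1 (0.061) and Sdf2l1 (0.026) were not called. Xbp1, the factor that controls many of these genes, fell by 0.21, a call lost without stimulated control replicate 3 (limma adjusted p = 0.0535), and Herpud1 was the other member that fell. In the list of heat shock proteins and chaperones outside the ER, 6 of 19 measured members rose and 3 fell, where 19.5% and 22.6% of all features did. The mitochondrial chaperonin Hspd1 rose by 0.56 and Hsph1, a nucleotide exchange factor for HSP70, by 0.52. The small heat shock gene Hspb6 fell to 9.0, 8.94 and 8.88 with G-CSF, against 10.84, 10.69 and 10.87 without it (-1.86 ± 0.080, SE), and its relative Hspb8 fell by 0.40.

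Genes of glucose use and of the response to low oxygen fell. Of 15 measured glycolysis genes 12 fell and none rose (median change -0.50), and of 15 hypoxia response genes 11 fell and none rose (median change -0.57). The shares over all features were 22.6% lower and 19.5% higher. The aldolase gene Aldoc had 9.09, 9.06 and 9.0 with G-CSF and 10.26, 10.23 and 10.15 without it (-1.16 ± 0.050, SE), and the phosphoglycerate kinase Pgk1 had 11.87, 11.99 and 11.98 with G-CSF and 12.70, 12.89 and 12.68 without it (-0.81 ± 0.11, SE). The groups did not overlap in either gene. The phosphofructokinases Pfkp, Pfkl and Pfkm fell by 0.76, 0.65 and 0.46, the glucose transporters Slc2a1 and Slc2a3 by 0.53 and 0.57, and Gapdh by 0.24. Vegfa, the angiogenic ligand that hypoxia induces, had 8.13, 8.25 and 8.35 with G-CSF and 9.68, 9.998 and 9.52 without it (-1.49 ± 0.10, SE; limma adjusted p = 2.62e-07). Egln3, a prolyl hydroxylase that marks HIF for degradation, fell by 0.84, the collagen hydroxylases P4ha1 and P4ha2 each by 0.71 and the pyruvate dehydrogenase kinase Pdk1 by 0.53. The Hif1a mRNA (-0.016) was not called. The core HIF letters ACGTG, sought on both strands of the 250 bases before start sites, were in 10 of 22 glycolysis windows (45.5%) and 8 of 15 hypoxia windows (53.3%), against 21.8% of the windows of measured genes. The windows with a match belong to 8 genes in each list. Both lists were chosen with earlier results of these data known, so nothing is read from these shares. A match is not evidence of binding, and a part of HIF in the falls was not tested.

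Nutrient-sensing genes fell in 12 of 19 measured cases and rose in 3, where 22.6% and 19.5% of all features did. Txnip, an arrestin-like protein that limits glucose uptake, had 10.89, 10.62 and 10.58 with G-CSF and 12.32, 12.32 and 12.52 without it (-1.69 ± 0.11, SE; limma adjusted p = 1.34e-07), and its relative Arrdc4 fell by 0.74. Sesn1, a leucine sensor family member, fell by 0.94, the insulin receptor gene Insr by 0.40, the adaptor Irs2 by 0.37 and Tsc22d3, which FOXO factors and glucocorticoids induce, by 0.79. The rises were in the kinase Sgk1 (0.77), the transcription factor Foxo1 (0.37) and Rictor (0.34), a part of mTORC2. Autophagy and lysosome genes fell in 11 of 22 cases and rose in 2. The sialidase Neu1 had 8.83, 8.90 and 8.89 with G-CSF and 9.92, 9.86 and 9.90 without it (-1.02 ± 0.057, SE), its partner Ctsa fell by 0.71 and the lysosomal ATPase subunit Atp6v0d1 by 0.42. Tfe3, which drives lysosome genes, rose by 0.83, with 9.22, 9.32 and 9.34 with G-CSF and 8.49, 8.41 and 8.46 without it.

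Ribosome biogenesis moved the other way. Of 24 measured nucleolar genes 18 rose and none fell, and their median change was 0.40. For this list and the cell cycle lists below, the shares over all features were 19.5% higher and 22.6% lower. Polr1b, a subunit of RNA polymerase I, had 9.49, 9.54 and 9.52 with G-CSF and 8.66, 8.64 and 8.69 without it (0.85 ± 0.066, SE), and Pes1, which matures the large ribosomal subunit, had 9.82, 9.86 and 9.82 with G-CSF and 9.08, 9.03 and 8.94 without it (0.81 ± 0.055, SE). In both genes every stimulated array was above every unstimulated array. Ppan rose by 0.83, the RNA methyltransferase Nop2 by 0.78, nucleolin, Ncl, by 0.77 and the polymerase I factor Ubtf by 0.47, while Npm1 (0.24) and Gnl3 (0.093) were not called. Npm1 was called higher under 8 alternatives, among them the fit without GY118F arrays (limma adjusted p = 0.028). Genes of G1 and S phase rose in 9 of 23 cases and fell in 2. The cyclins Ccnd2, Ccne1 and Ccnd1 rose by 0.96, 0.74 and 0.66 and the phosphatase Cdc25a by 0.61, whereas E2f1 fell by 0.54 and the replication helicase subunits Mcm2 (0.10), Mcm3 (0.02), Mcm6 (0.007) and Mcm7 (0.013) were not called. Of 15 G2 and M phase genes 1 rose and 3 fell, both under the shares over all features.

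Genes that p53 induces or that act in apoptosis were called higher in 10 of 22 measured cases and lower in 7, and those that fell include Bbc3, named above. Over all features 19.5% were called higher and 22.6% lower. Cdkn1a, the cell cycle inhibitor p21, had 10.87, 10.86 and 10.90 with G-CSF and 9.92, 9.98 and 10.15 without it (0.86 ± 0.058, SE). Phlda3 rose by 0.72, the polo-like kinase Plk2 by 0.71, Ccng1 by 0.61 and Mdm2, which degrades p53, by 0.42. The BH3 genes Bik and Bmf fell by 0.27 and 0.26, and Bcl2l11 (0.15) and the survival genes Mcl1 (0.13) and Bcl2l1 (0.10) were not called, though array weights brought in all 3. The Bmf call was lost without unstimulated control replicate 2 or stimulated control replicate 3 and with the floor (limma adjusted p up to 0.689).

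**Figure D3:**
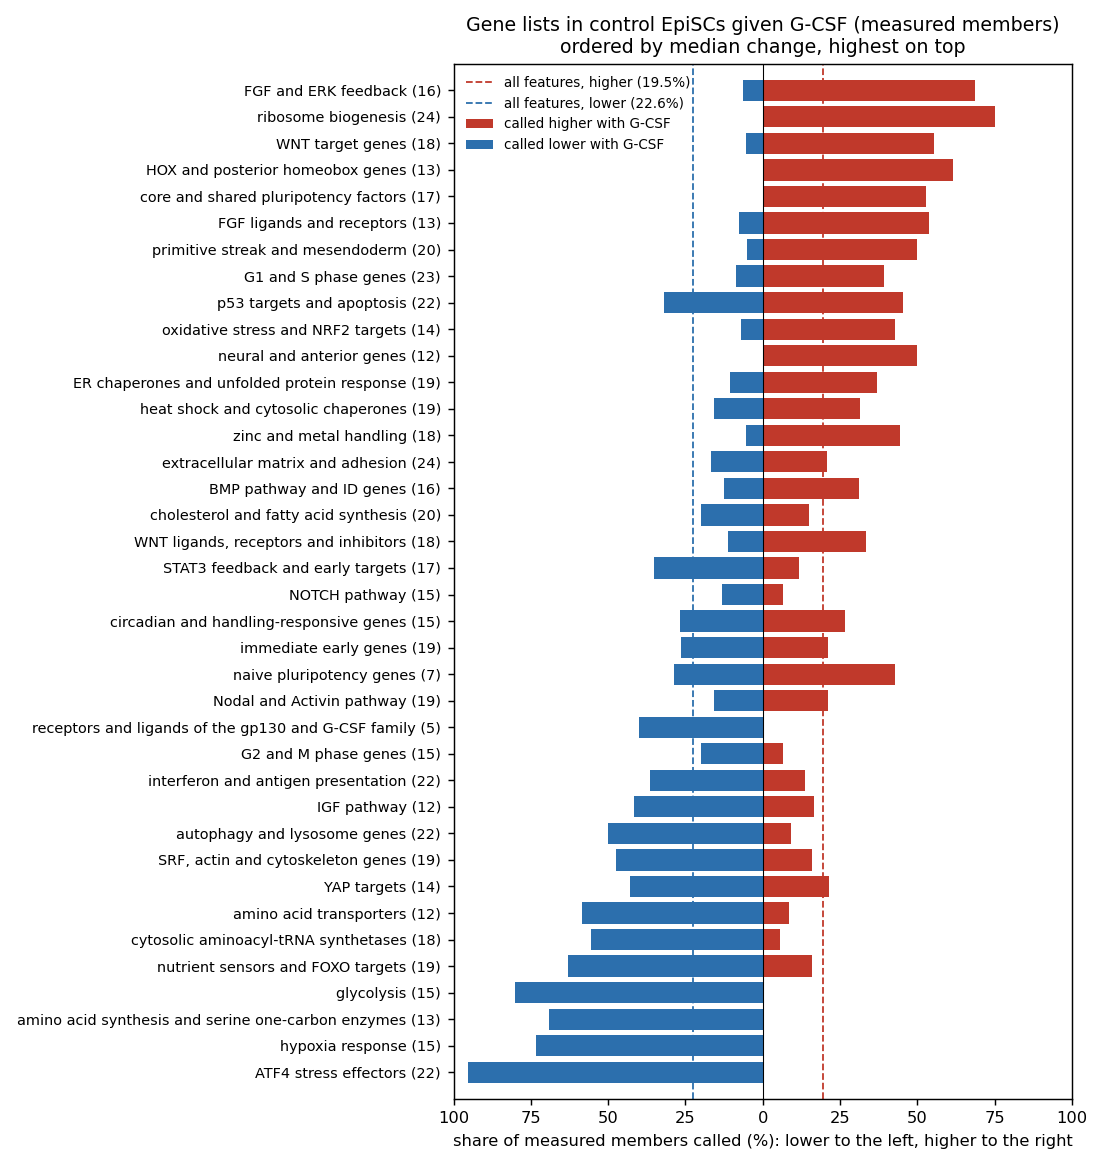
Share of measured members of each gene list called higher (red, to the right) or lower (blue, to the left) in control EpiSCs with G-CSF against unstimulated ones, in percent, with the number of measured members in brackets and dashed lines at the shares over all features (19.5% higher and 22.6% lower). Lists are ordered by their median change, from FGF and ERK feedback at the top (0.41) to ATF4 stress effectors at the bottom (-1.07).

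Feedback genes of FGF and ERK signalling rose. Of 16 measured members 11 rose and 1 fell, with a median change of 0.41, the highest of the lists. Among all features 19.5% rose and 22.6% fell. Etv4, a transcription factor that FGF induces, had 9.37, 9.24 and 9.28 with G-CSF and 8.60, 8.48 and 8.59 without it (0.74 ± 0.049, SE). Dusp6, a phosphatase that switches off ERK, had 11.96, 11.99 and 11.98 with G-CSF and 11.61, 11.37 and 11.46 without it (0.49 ± 0.071, SE). The related phosphatases Dusp5 and Dusp4 rose by 0.55 and 0.50, the receptor inhibitors Spred1 and Spry4 by 0.49 and 0.39 and the ephrin receptor Epha2 by 0.53. Etv5 (0.074), Dusp7 (-0.083) and Il17rd (0.39) were not called, although Il17rd was with array weights and as the mean of its probes. Among FGF receptors Fgfr2 had 8.89, 8.76 and 9.01 with G-CSF and 7.76, 7.86 and 7.72 without it (1.11 ± 0.099, SE), whereas Fgfr1 (0.008) was not called. Of the ligands, Fgf17 rose by 0.40 and Fgf5 by 0.38, and Fgf8 (0.03) was not called. The Fgf5 call was lost with the floor and without unstimulated control replicate 3 (limma adjusted p up to 0.0714).

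Immediate early genes, which cells switch on within minutes of a growth signal, showed no common direction. They rose in 4 of 19 measured cases and fell in 5, near the shares over all features. Egr3 had 8.95, 8.80 and 9.32 with G-CSF and 7.72, 7.68 and 7.62 without it (1.35 ± 0.11, SE), and Fos had 8.02, 7.99 and 8.18 with G-CSF and 7.65, 7.60 and 7.52 without it (0.47 ± 0.063, SE). Klf2 rose by 0.49 and the mRNA decay factor Zfp36l1 by 0.38. Btg1, Ier3 and Klf6 fell by 0.79, 0.72 and 0.60. Egr1 (0.09), Junb (-0.13), Dusp1 (-0.024) and Myc (0.075) were not called. Junb was called lower under 7 alternatives, among them the fit without GY118F arrays (limma adjusted p = 0.0455).

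WNT target genes rose in 10 of 18 measured cases and fell in 1 (median change 0.37), where 19.5% and 22.6% of all features did. Sp5, a zinc finger factor that beta-catenin induces directly, had 10.08, 9.92 and 10.24 with G-CSF and 8.22, 8.29 and 8.11 without it (1.87 ± 0.11, SE; limma adjusted p = 9.20e-08). Its promoter is shown because the letters CTTTGAT and CTTTGTT, to which TCF and LEF factors bind, were found in it on the plus and the minus strand, in capitals as written along the gene (RefSeq, GRCm38.p6, 250 bases before the start site).
Sp5 (chr2:70474673-70474922, plus strand): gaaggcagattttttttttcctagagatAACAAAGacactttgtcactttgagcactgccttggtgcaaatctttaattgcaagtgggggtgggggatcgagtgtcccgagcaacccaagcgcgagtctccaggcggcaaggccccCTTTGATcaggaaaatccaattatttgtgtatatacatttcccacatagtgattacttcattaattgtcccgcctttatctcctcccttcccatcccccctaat
These letters lay in 3 of 22 windows of the list (13.6%), against 5.56% of the windows of measured genes and 8.06% of all windows. A match is not evidence of binding, and nothing is read from these shares. Axin2, the feedback inhibitor of the pathway, had 8.48, 8.47 and 8.44 with G-CSF and 7.91, 7.89 and 7.88 without it (0.57 ± 0.048, SE), and the transcription factor Lef1 rose by 0.47. Sall3 had 9.06, 8.91 and 8.92 with G-CSF and 7.56, 7.45 and 7.43 without it (1.48 ± 0.061, SE), and the receptor Tnfrsf19 rose by 0.87. The secreted inhibitors and feedback genes Notum (0.048), Nkd1 (0.10) and Apcdd1 (-0.042) lay near the bottom of the scale without a call.

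Among WNT ligands and receptors, 6 of 18 rose and 2 fell, where 19.5% and 22.6% of all features did. Wnt8a, a ligand of the posterior epiblast, had 11.10, 11.02 and 10.90 with G-CSF and 9.20, 9.14 and 9.09 without it (1.86 ± 0.060, SE; limma adjusted p = 4.26e-10). All 3 of its probes rose, by 1.86, 1.77 and 1.17. Wnt3, the ligand that starts the primitive streak, rose by 0.51 and the receptors Fzd10 and Fzd7 by 0.59 and 0.32, whereas Fzd5 fell by 0.51.

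In the Nodal and Activin pathway 4 of 19 members were higher and 3 lower, near the shares over all features (19.5% and 22.6%). Fst, the secreted antagonist that binds Activin, had the largest rise of all features, with 11.18, 11.03 and 11.18 with G-CSF and 8.76, 8.72 and 8.72 without it (2.40 ± 0.093, SE; limma adjusted p = 2.39e-09) or 5.28-fold. The corepressor genes Tgif1 and Ski rose by 0.57 and 0.29, and the signal transducer Smad3 and the receptor Acvr1b fell by 0.40 and 0.41. Nodal was not called, with 10.72, 10.71 and 10.59 with G-CSF and 10.69, 10.65 and 10.65 without it (0.005 ± 0.24, SE). Lefty1, a secreted Nodal antagonist, had 12.33, 12.02 and 12.23 with G-CSF and 13.22, 13.04 and 13.22 without it. Its groups did not overlap, but the change of -0.97 ± 0.64 (SE) was not called (limma adjusted p = 0.256), in a fit that shares its spread with GY118F arrays, where unstimulated replicate 3 stood at 11.34 against 7.93 and 7.97 in the other unstimulated ones. Fitted without GY118F arrays, Lefty1 was called lower (limma adjusted p = 2.22e-05), and likewise when only that replicate was left out (limma adjusted p = 1.62e-06). In the BMP pathway 5 of 16 rose, with Bmpr2 at 0.67 and the inhibitory helix-loop-helix gene Id2 at 0.66. In that list 2 fell, with the ligand Bmp4 at -0.47, against 19.5% higher and 22.6% lower over all features. Both group means of 7 of the 16 lay under the 25th percentile, where a change may not be seen. NOTCH genes rose in 1 and fell in 2 of 15 cases, under the shares over all features, with Nrarp at 0.44, Hes1 at -0.66 and Hey1 at -0.24.

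**Figure D4:**
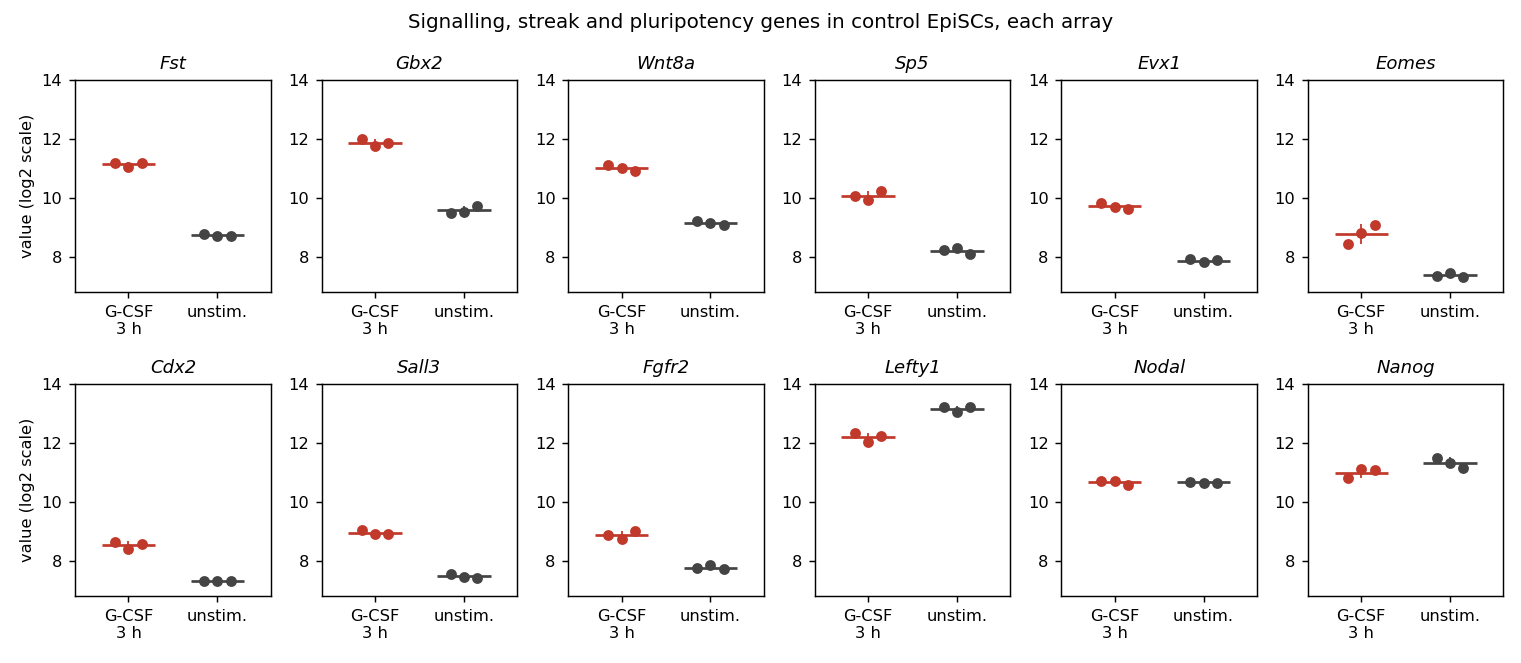
Values on the log2 scale (vertical axes, one range for all panels) of 12 signalling, streak and pluripotency genes in each of the 3 control arrays with G-CSF (red) and the 3 unstimulated control arrays (grey), with group means as horizontal lines and SD as vertical lines. The first 9 genes lie higher in every stimulated array, Lefty1 and Nanog lie lower in every stimulated array, and the groups overlap in Nodal.

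Genes of the primitive streak and mesendoderm were called higher in 10 of 20 measured cases and lower in 1. Among all features 19.5% were called higher and 22.6% lower. Gbx2, a homeobox gene of the posterior epiblast, had 11.99, 11.74 and 11.87 with G-CSF and 9.49, 9.53 and 9.73 without it (2.28 ± 0.079, SE; limma adjusted p = 8.40e-10). Evx1, a homeobox gene of the posterior streak, had 9.83, 9.69 and 9.63 with G-CSF and 7.91, 7.81 and 7.88 without it (1.85 ± 0.059, SE). Both genes lay above the 25th percentile of all values before G-CSF as well. The T-box factor Eomes had 8.42, 8.80 and 9.09 with G-CSF and 7.36, 7.45 and 7.33 without it (1.39 ± 0.13, SE), and the caudal factor Cdx2 had 8.66, 8.41 and 8.57 with G-CSF and 7.31, 7.31 and 7.32 without it (1.23 ± 0.066, SE). Both lay under the 25th percentile in unstimulated cells and above it in every stimulated array. Nkx1-2 rose by 0.64 and Mixl1 by 0.50. Tbx6 (-0.047), Pdgfra (-0.10), Kdr (-0.012) and Sox17 (-0.004) were not called, and both group means of each lay under the 25th percentile, where a change may not be seen. The organizer gene Gsc fell by 0.26, a call lost without unstimulated control replicate 1 or 2 or stimulated control replicate 2 or 3 and with the floor (limma adjusted p up to 0.124).

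Posterior homeobox genes rose in 8 of 13 measured cases and none fell, against 19.5% higher and 22.6% lower over all features. Hoxb2 had 8.42, 8.39 and 8.44 with G-CSF and 7.58, 7.73 and 7.68 without it (0.75 ± 0.054, SE), and Meis2, a HOX cofactor, had 9.82, 9.83 and 9.71 with G-CSF and 8.89, 8.91 and 9.28 without it (0.76 ± 0.088, SE). Irx3 rose by 0.63, Hoxb1 by 0.50 and Meis1 by 0.47. Several of these genes were dim: with the floor at the 25th percentile the calls of Hoxa2, Hoxa5 and Hoxb5 were lost (limma adjusted p up to 1), and 5 members were called higher. Genes of neural and anterior fates rose in 6 of 12 cases, with Sox9 at 0.92, the neural filament Nes at 0.40 and Sox11 at 0.30, whereas Otx2 (0.09), Zic1 (0.08) and Zic2 (0.0095) were not called. Otx2 marks the anterior epiblast, and its values were 10.35, 10.31 and 10.45 with G-CSF and 10.41, 10.28 and 10.14 without it.

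Shared pluripotency factors rose in 9 of 17 measured cases and none fell (median change 0.22), against 19.5% and 22.6% of all features. Trim71, an RNA-binding ubiquitin ligase, had 10.38, 10.32 and 10.37 with G-CSF and 9.86, 9.57 and 9.59 without it (0.68 ± 0.091, SE), Lin28a, which blocks let-7 microRNAs, rose by 0.51, and the factors Utf1, Sox2 and Sall4 rose by 0.50, 0.45 and 0.38. Pou5f1, which encodes OCT4, rose by 0.24, but not with the floor, with array weights, or without unstimulated control replicate 1 or 2 or stimulated control replicate 1 or 3 (limma adjusted p up to 0.107). Nanog lay lower in every stimulated array, with 10.80, 11.11 and 11.09 with G-CSF and 11.51, 11.33 and 11.14 without it. Its change of -0.33 ± 0.15 (SE) was not called (limma adjusted p = 0.0961), but it was when fitted without GY118F arrays (limma adjusted p = 0.0291), without unstimulated GY118F replicate 3, with array weights and as the mean of its probes. The groups lay only 0.029 apart in this probe. The second Nanog probe fell by 0.64 (limma adjusted p = 0.000903, all probes as features). Of 7 naive pluripotency genes, Gbx2, Klf2 and Klf5 rose and Fbxo15 (-0.31) and Manba (-0.32) fell. Tfap2c, a factor shared with trophoblast and germ cells, rose by 0.95, while the epithelial keratins Krt8 and Krt18 fell by 0.43 and 0.52.

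Among genes read out from YAP, which responds to cell shape and crowding, 3 of 14 rose and 6 fell. Over all features 19.5% rose and 22.6% fell, so the share of YAP genes that rose was near that of all features. Ccn2, a matricellular protein, had 8.19, 8.07 and 8.07 with G-CSF and 10.58, 10.54 and 10.77 without it (-2.52 ± 0.12, SE; limma adjusted p = 1.55e-08), and its second probe fell by 1.05. Its close relative Ccn1 fell by 0.25 at the bottom of the scale, a call lost with the floor (limma adjusted p = 1). Nt5e, an ectoenzyme that makes adenosine, went the other way, with 10.15, 10.10 and 9.93 with G-CSF and 8.45, 8.34 and 8.35 without it (1.68 ± 0.069, SE). Cytoskeletal and SRF genes fell in 9 of 19 cases, with the actin crosslinker Actn1 at -0.47, and rose in 3, with the focal adhesion gene Zyx at 0.68. Extracellular matrix and adhesion genes rose in 5 and fell in 4 of 24 cases, with Vim at 0.43 and Zeb1 at -0.41, close to the shares over all features.

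Several of the largest changes lay outside these lists. Lor, a protein of the cornified envelope of skin, had 10.79, 10.84 and 10.64 with G-CSF and 8.59, 8.53 and 8.49 without it (2.22 ± 0.064, SE). Fjx1, a homologue of the fly planar polarity gene four-jointed, had 10.61, 10.54 and 10.86 with G-CSF and 8.55, 8.54 and 8.57 without it (2.12 ± 0.12, SE). Slc46a3, a lysosomal membrane transporter, had 11.49, 11.54 and 11.49 with G-CSF and 9.57, 9.44 and 9.45 without it (2.02 ± 0.062, SE). The groups of each were far apart. The RAS-related gene Rerg rose by 1.55, the transcription factors Rfx4 and Zfhx3 by 1.43 and 1.08, the corepressor Bcor by 1.2, the arginine methyltransferase Prmt6 by 1.19, the glutamate receptor Grm6 by 1.08, the haem exporter Flvcr1 by 1.08 and the protease inhibitor Slpi by 1.08. Otub2, a deubiquitinase, fell by 1.86, Gch1, which starts tetrahydrobiopterin synthesis, by 1.47, the sulfotransferase Chst1 by 1.47, the oxidoreductase gene Dhrs7 by 1.45, Lrrc75a by 1.32 and the pattern receptor Tlr2 by 1.19. A dimmer probe of the same gene can give a smaller change, as with Slc30a3, a zinc transporter, whose 2 probes rose by 1.90 and 0.22.

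The GY118F line was given G-CSF for the same time, and the changes in the 2 lines were compared by a test of their difference (control minus GY118F). It called 240 features (2.14%) with a more upward and 432 (3.85%) with a more downward change in control EpiSCs. Of the 25 largest falls named for control EpiSCs, all 25 were also called lower in GY118F EpiSCs, where 21.9% of features were. A difference was called for 11 of these 25, each a larger fall in control EpiSCs, where 3.85% of all features had a more downward change. These genes were chosen for their fall in control EpiSCs, which enters the difference and favours that direction, so nothing is read from the count. Trib3 changed by -3.64 in control and -3.09 in GY118F EpiSCs, a difference of -0.55 ± 0.11 (SE; limma adjusted p = 0.00791). Chac1 had 8.94 and 8.76 in the stimulated and 12.85, 12.90 and 12.79 in the unstimulated GY118F arrays, and its fall was larger in control EpiSCs (-0.96 ± 0.083, SE). In the Atf4 mRNA (-0.25), Ddit4 (-0.069), Vldlr (-0.16), Txnip (0.018) and Gpt2 (-0.16) no difference was called, with SE of 0.16, 0.12, 0.095, 0.16 and 0.11.

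Of the 25 largest rises, 21 were also called higher in GY118F EpiSCs (17.8% of features were), 1 was called lower and 3 were not called. A more upward change in control EpiSCs was called for 11 of them and a more downward one for 3, against 2.14% and 3.85% of all features. The choice of genes by their rise in control EpiSCs favours the more upward direction, so nothing is read from these counts either. Wnt8a rose by 1.86 in control and fell by 0.40 in GY118F EpiSCs (2.26 ± 0.090, SE; limma adjusted p = 1.83e-08). Its level differed beforehand, with 9.20, 9.14 and 9.09 in unstimulated control and 10.60, 10.58 and 10.63 in unstimulated GY118F arrays. Sall3 rose by 1.48 in control EpiSCs and changed by -0.025 in GY118F EpiSCs (1.51 ± 0.092, SE), from 7.56, 7.45 and 7.43 in unstimulated control and 8.06, 8.14 and 7.98 in unstimulated GY118F arrays. Gbx2 also rose more in control EpiSCs, with a difference of 1.39 ± 0.12 (SE) and unstimulated values of 9.49, 9.53 and 9.73 in control and 12.26, 12.41 and 12.44 in GY118F arrays. The part of these starting levels in the differences was not tested. Fst (1.58), Fgfr2 (1.12), Nt5e (1.07), Evx1 (1.0) and Cdx2 (0.77) also had a more upward change in control EpiSCs, whereas in Sp5 (-0.32 ± 0.17, SE), Fjx1 (0.39 ± 0.18, SE) and Egr3 (-0.39 ± 0.17, SE) no difference was called. Without unstimulated GY118F replicate 3 a difference was called for Sp5 (limma adjusted p = 0.0425), and without stimulated control replicate 3 for Egr3 (limma adjusted p = 0.0248).

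Among the lists, STAT3 targets had the largest share of members whose change differed between the lines. A more downward change in control EpiSCs was called for 14 of its 17 members, against 3.85% of all features. In GY118F EpiSCs 14 members were higher, against 17.8% of all features, with a median change there of 1.56. The list was chosen with earlier results of these data known, so nothing is read from these counts. Socs3 had 11.99 and 11.94 in stimulated and 8.96, 8.94 and 8.98 in unstimulated GY118F arrays, and the difference of the changes was -3.18 ± 0.066 (SE; limma adjusted p = 1.96e-11). In the FGF and ERK feedback, WNT target and ribosome biogenesis lists the medians were 0.41, 0.37 and 0.40 in control EpiSCs and 0.33, 0.26 and 0.38 in GY118F EpiSCs. Of HOX and posterior homeobox genes 5 of 13 had a more upward change in control EpiSCs, where 2.14% of all features did. This list too was chosen with earlier results of these data known, so nothing is read from that count. The 5 included Irx3, which rose by 0.63 in control and fell by 0.69 in GY118F EpiSCs. They also included Meis2, which rose by 0.76 in control EpiSCs, while its change of -0.22 in GY118F EpiSCs was not called. Unstimulated means were 7.58 in control and 9.24 in GY118F EpiSCs for Irx3, and 9.03 and 10.40 for Meis2. The part of these starting levels in the differences was not tested.

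**Figure D5:**
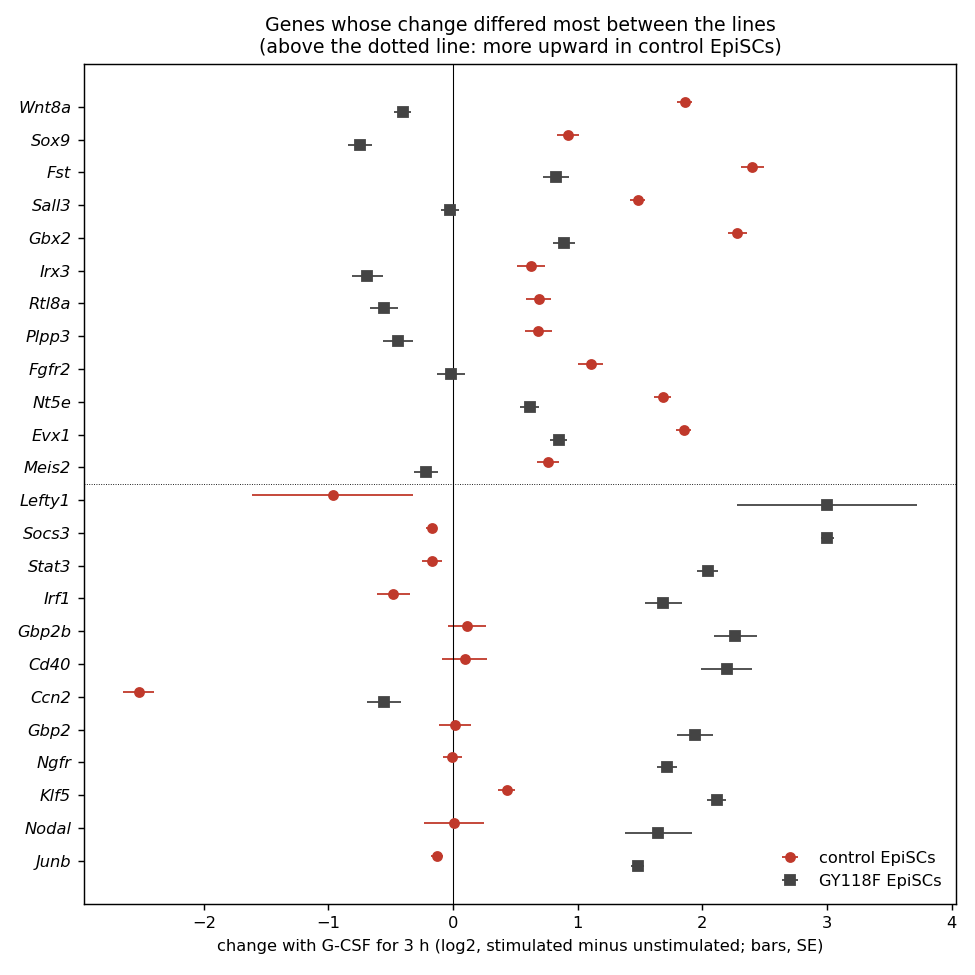
Change with G-CSF for 3 hours (horizontal axis, log2, stimulated minus unstimulated, bars are SE) in control EpiSCs (red circles) and GY118F EpiSCs (grey squares) for the 12 genes whose change was most upward in control relative to GY118F EpiSCs (top, Wnt8a to Meis2) and the 12 whose change was most downward (bottom, Lefty1 to Junb). Socs3 and Stat3 lie near 0 in control EpiSCs, at -0.17 and -0.17, and Ccn2 lies below 0 in both lines.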

How the data were processed

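Total RNA of mouse EpiSCs was labelled with biotin and hybridised to Illumina bead arrays, per the labels' protocols. The authors deposited 1 table of log2-scale values, processed in lumi according to the submitters' processing notes. The lumi version was not given in the sources used here, nor was whether its variance-stabilizing step, which would understate changes of dim features, stood in for a plain log2. The sorted log2 values of the 11 deposited arrays differed by at most 0.00116, as after quantile normalization between arrays, so a change in total RNA is no longer in them. No detection p-values or scanner intensities were used here.

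Of 15718 probes, 13711 had 1 gene symbol in GEO's platform annotation, 5 had more than 1, and for 2002 none was listed. Symbols were checked by gene number against RefSeq (GRCm38.p6, used for names and promoters), which changed 0 of them. The brightest probe of each of 9201 symbols and the 2007 other probes gave 11208 features, with no filter on dim ones.

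All 11 arrays in 4 groups were fitted with limma 3.58.1 in R 4.3.3 (lmFit and eBayes, no replicate block). Contrasts were stimulated minus unstimulated in each line and the difference of these changes, with two-sided tests and p-values adjusted by Benjamini-Hochberg across the whole table, called at 0.05. P-values measure the spread between these arrays, which may be technical. Stimulated control arrays are numbered by their titles, since every source name among them reads replicate 1. Stimulated GY118F arrays are called replicates 2 and 3 after their source names, where their titles say 1 and 2, and the replicate block used the source-name numbers. Named are the 25 largest rises and the 25 largest falls that were called without overlap between the groups, the 12 largest called differences in each direction, all with 1 symbol that is not provisional, and list members. Members, lists and rules were chosen with earlier results of these data known.

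Alternatives were a fit of the control arrays alone, a replicate block, leaving out unstimulated GY118F replicate 3, all probes or the mean of a gene's probes, leaving out the dimmer 50% of features, a floor at the 25th percentile, a second quantile normalization, trend and robust moderation, array weights, a threshold of 0.01 or 1.4-fold, and leaving out each array in turn. Leaving out GY118F arrays for the control counts was added after seeing the data.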

Additional observations from a re-analysis of the deposited data

Results flagged for a closer look

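For 41 of the 66 genes named by the rules, the change with G-CSF differed between control and GY118F EpiSCs by limma's test of the difference (control minus GY118F, Benjamini-Hochberg adjusted p under 0.05), and this is what brought them here. A more upward change in control EpiSCs was found in Wnt8a (2.26), Sox9 (1.67), Fst (1.58), Sall3 (1.51), Gbx2 (1.39), Irx3 (1.31), Rtl8a (1.24), Plpp3 (1.13), Fgfr2 (1.12), Nt5e (1.07), Evx1 (1.0), Meis2 (0.98), Slpi (0.94), Cdx2 (0.77), Grm6 (0.45) and Slc46a3 (0.36). A more downward change in control EpiSCs was found in Lefty1 (-3.97), Socs3 (-3.18), Stat3 (-2.21), Irf1 (-2.17), Gbp2b (-2.15), Cd40 (-2.10), Ccn2 (-1.97), Gbp2 (-1.93), Ngfr (-1.72), Klf5 (-1.69), Nodal (-1.64), Junb (-1.61), Slc30a3 (-1.33), Nupr1 (-1.16), Herpud1 (-1.05), Chac1 (-0.96), Chst1 (-0.73), Arhgef18 (-0.64), Gch1 (-0.60), Trib3 (-0.55), Lor (-0.52), Tlr2 (-0.50), Srxn1 (-0.45), Slc1a4 (-0.39) and Lrrc75a (-0.39). No explanation was weighed for any of them. Starting levels differed between the lines in part of these genes. Unstimulated means in control and GY118F EpiSCs were 11.715 and 9.67 for Irf1, 9.85 and 8.67 for Cd40, and 10.63 and 8.58 for Ccn2. Stimulated means were 11.24 and 11.36 for Irf1, and 8.11 and 8.02 for Ccn2. In Socs3 GY118F EpiSCs began higher (8.23 and 8.96), and Stat3 began alike (7.87 and 7.86). The part of these starting levels in the differences was not tested. For Lefty1 the call ended when any of 9 arrays was left out, that is, each except stimulated control replicate 1 and unstimulated GY118F replicate 3 (limma adjusted p up to 0.0863). It also ended with the floor and with trend and robust moderation (limma adjusted p up to 0.147), and the difference was -5.1 when unstimulated GY118F replicate 3 was left out. For Nodal it ended with the floor, with trend and robust moderation and on leaving out stimulated GY118F replicate 2 or 3 (limma adjusted p up to 0.101). The calls of Gch1, Lrrc75a, Slc46a3 and Srxn1 were lost under at least 1 alternative each (limma adjusted p up to 0.0684, 0.163, 0.132 and 0.183). Groups of 2 or 3 arrays are too small for a test of whether a single array is an outlier, and none was run. Leaving out unstimulated GY118F replicate 3 was an alternative because its Lefty1 and Nodal values were known to stand apart.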

How the results depend on the processing

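The counts of 2187 higher and 2536 lower features in control EpiSCs stayed within 1.5 times under every alternative except those that test fewer features or demand larger changes: without the dimmer features they were 1448 and 1506, and over 1.4-fold 361 and 473. The counts of more upward and more downward changes in control than in GY118F EpiSCs were 129 and 232 without the dimmer features, 100 and 220 at a threshold of 0.01, and 81 and 197 over 1.4-fold. Leaving out 1 array at a time gave 1822 to 2258 higher, 2113 to 2634 lower, 151 to 352 more upward and 278 to 496 more downward features. Of these, more upward changes numbered 159 without unstimulated control replicate 2 and 151 without unstimulated GY118F replicate 2, and more downward ones 278 without stimulated GY118F replicate 2, which leaves 1 array in that group, assumed to vary like the others. The cause was not tested. With a replicate block the counts were 2243, 2559, 221 and 412, in the order higher, lower, more upward and more downward. Deviations from the group means of same-numbered control arrays correlated at 0.262, 0.246 and -0.293. Those of differently numbered control arrays correlated at -0.598 to 0.495. Such deviations constrain one another within a group of 3, so whether the numbers pair the arrays cannot be decided here. Of the called features, 82.0% to 99.3% were called in the same direction under the other alternatives that gave them a value. With the mean of a gene's probes 3 genes of the lists that were called before or after changed sign: Actb to 0.22, Kars to -0.13 and Shmt1 to 0.11, and at least 1 dimmer probe of each had the opposite sign to its brightest. None of the 25 largest rises and 25 largest falls lost its call under any alternative that gave it a value.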

Other observations

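More zinc and redox genes rose than fell in control EpiSCs. Of 18 measured genes of zinc and metal handling 8 rose and 1 fell, against 19.5% and 22.6% of all features. Slc30a1, which exports zinc from the cell, had 9.01, 9.07 and 9.32 with G-CSF and 7.78, 8.03 and 7.91 without it (1.23 ± 0.085, SE). Slc30a3, which loads zinc into vesicles, had 10.60, 10.64 and 10.58 with G-CSF and 8.72, 8.68 and 8.72 without it (1.90 ± 0.055, SE). The metal-sensing factor Mtf1 rose by 0.78, the metallothionein Mt1 by 0.60 and the importers Slc39a6 and Slc39a7 by 0.49 and 0.30. The metallothionein Mt2 rose by 0.20, but not with the floor, nor when replicate 2 or 3 of the stimulated or of the unstimulated control arrays was left out (limma adjusted p up to 0.185). Of 14 measured NRF2 targets and redox genes 6 rose and 1 fell. Srxn1, which repairs peroxiredoxins, rose by 1.05, Gclm, a subunit of the glutathione-making enzyme, by 0.59 and the haem oxygenase Hmox1 by 0.53.

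Interferon and antigen presentation genes rose in 3 and fell in 8 of 22 cases, with the GTPase Igtp at -0.71, Stat2 at -0.38 and B2m at -0.28, and the immunoproteasome subunit Psmb10 at 0.45. Over all features 19.5% rose and 22.6% fell. IGF pathway genes rose in 2 and fell in 5 of 12 cases, with the ligand Igf2 at -0.45 and the RNA-binding protein Igf2bp1 at 0.48. Cholesterol and fatty acid synthesis genes rose in 3 and fell in 4 of 20 cases, fewer than over all features, with the desaturase Scd2 at 0.60 and Mvd at -0.38. Clock and handling-responsive genes rose in 4 and fell in 4 of 15 cases, near the shares over all features, with Dbp at -0.69 and Ciart at -0.54, outputs of the circadian clock, and Clock at 0.23. The glucocorticoid-responsive gene Fkbp5 (-0.083) was not called. Of the called features, 674 had no single symbol here.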
